A study of Drosophila melanogaster with 9 samples.

Results

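The piRNA clusters cluster73, cluster112 and cluster34 had higher levels of piRNAs on both strands in enok mutant germline clone ovaries than in the wild-type (WT) control. They were chosen from 140 clusters by that measurement. Among the 13 clusters called higher on both strands in both enok1 and enok2 compared with WT, these 3 had the largest mean log2 fold change. All 3 were present in the sense and the antisense table in all 9 libraries. Because the values against WT chose these clusters, their levels in the mutants compared with WT are given as a description, with no test. The difference between the mutant alleles was not used in the choice and was tested.

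PIWI-interacting RNAs (piRNAs) guide PIWI proteins to silence transposons in the germline, and they are cut from long precursors transcribed from genomic regions called piRNA clusters. Germline clusters such as 42AB are read on both strands and rely on the chromodomain protein Rhino in place of a conventional promoter, whereas flam, or flamenco, is read mainly on a single strand in the somatic follicle cells. Enok is a histone acetyltransferase, and loss of it in the germline allows a comparison of clusters that depend on it with those that do not.

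Small RNAs were sequenced from egg chambers past the earliest stages, without the germarium, of ovaries from Drosophila melanogaster females 3 to 5 days old, with 3 libraries each of WT, enok1 and enok2 germline clones. All females carried a heat-shock Flp transgene (hs-Flp / +) and a chromosome with FRTG13 and the dominant female-sterile ovo[D1-18], set against FRTG13 alone in WT, FRTG13 with enok[1] in enok1 and FRTG13 with enok[2] in enok2. The enok[1] allele is a nonsense change that truncates the acetyltransferase domain, and enok[2] is a missense change in that domain. To induce Flp, all animals had been heat shocked as larvae at 37 °C for 40 min, repeatedly on consecutive days. Flp then acts in many cells, and ovo[D1-18] stops only germline cells that kept it, so the follicle cells around a clone need not be mutant.

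The abundance used here is the signal of a cluster on 1 strand divided by the microRNA (miRNA) reads of the same library, as the authors deposited it. It is not limited to reads unique to a cluster, as set out under the processing. Part of it may come from reads that also match other positions. Fewer cells that make a piRNA and fewer piRNAs per cell cannot be told apart in such libraries, which hold germline and follicle cells of the egg chambers together. Both 42AB and flam, the clusters read in germline and follicle cells respectively, were found in every library, with 20.4% ± 0.480 and 4.96% ± 0.388 of WT cluster piRNAs (mean ± SD, n = 3). The summed abundance of all clusters was between 548223 and 577943 in the WT libraries, between 301140 and 418758 in enok1 and between 393288 and 438338 in enok2. Enok1 replicate 1 had the lowest total of the 9 libraries. By the spacing of low values in the 3′ UTR table of the same libraries, 1 read was worth between 0.271 and 0.486 abundance units, so that cluster73, cluster112 and cluster34 held between 787 and 8306 read equivalents per strand and library. If each equivalent were 1 independent read, counting error alone would give a coefficient of variation (CV) between 3.56% and 1.10%. Reads copied by PCR or shared between positions are not allowed for in this. The study's text calls its replicates independent, while the labels do not say whether libraries of a group came from separate animals or crosses. The p-values therefore measure the spread between these libraries, whatever its source. For limma that spread was pooled over clusters. In 5 of 6 fits of abundance all clusters had the same SE, which is not the spread of any 1 cluster.

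Cluster73 had the largest change. Its antisense abundance was 758, 812 and 870 in WT replicates 1, 2 and 3, and 1385, 2076 and 2272 in those of enok1. In enok2 it was 2567, 2570 and 2480. All 6 mutant libraries lay above the 3 WT libraries, and the enok2 libraries also lay above all of enok1. The means were 813 ± 56.0 in WT, 1911 ± 466 in enok1 and 2539 ± 51.0 in enok2 (SD, n = 3 each), or 2.35 and 3.12 times the WT mean. The log2 fold change was 1.20 (SE 0.18) in enok1 and 1.64 (SE 0.08) in enok2, the largest of any antisense cluster in each mutant.

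The sense strand of cluster73 changed less. Its abundance was 906, 871 and 946 in the WT libraries, 1138, 1719 and 1813 in enok1 and 2012, 2005 and 1973 in enok2. Again no mutant library reached down to the WT values, although enok1 replicate 1 was only 1.20 times the highest WT library. The sense means were 908 ± 37.3, 1557 ± 366 and 1996 ± 20.9, which gave log2 fold changes of 0.75 (SE 0.18) in enok1 and 1.14 (SE 0.09) in enok2. Among sense clusters it took place 6 in enok1 and place 4 in enok2.

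Cluster112 is the smallest of the 3 and was read mostly from the sense strand. Its sense abundance was 679, 660 and 767 in WT, 835, 1290 and 1421 in enok1 and 1527, 1462 and 1459 in enok2. The lowest mutant value, in enok1 replicate 1, was 1.09 times the highest WT value, so the groups were separate by a narrow margin. The sense log2 fold changes were 0.72 (SE 0.18) in enok1 and 1.08 (SE 0.09) in enok2.

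The antisense strand of cluster112, the weaker strand in WT, had the greater relative gain. Its abundance was 314, 317 and 364 in WT, 567, 763 and 877 in enok1 and 892, 934 and 886 in enok2. Here every mutant library was at least 1.56 times the highest WT library. The means were 332 ± 28.3, 736 ± 157 and 904 ± 25.9, with log2 fold changes of 1.13 (SE 0.18) and 1.45 (SE 0.08), second only to cluster73 on the antisense strand in both mutants.

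Cluster34 was the most abundant of the 3 in WT and was read mostly from the antisense strand. Its antisense abundance was 1388, 1284 and 1625 in WT, 1779, 3109 and 2922 in enok1 and 3585, 2842 and 3260 in enok2. Enok1 replicate 1 stood close to the highest WT library, at 1.09 times its value. The antisense log2 fold changes were 0.83 (SE 0.18) in enok1 and 1.17 (SE 0.10) in enok2.

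On its sense strand the WT libraries of cluster34 read 665, 653 and 779, those of enok1 1018, 1546 and 1551, and those of enok2 1917, 1425 and 1679. The alleles overlapped on this strand, since enok2 replicate 2 was below enok1 replicates 2 and 3. The means were 699 ± 69.4, 1372 ± 306 and 1674 ± 246, with log2 fold changes of 0.95 (SE 0.18) and 1.25 (SE 0.09). The latter was the largest of any sense cluster in enok2, and the former was second to cluster71 in enok1.

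**Figure D1:**
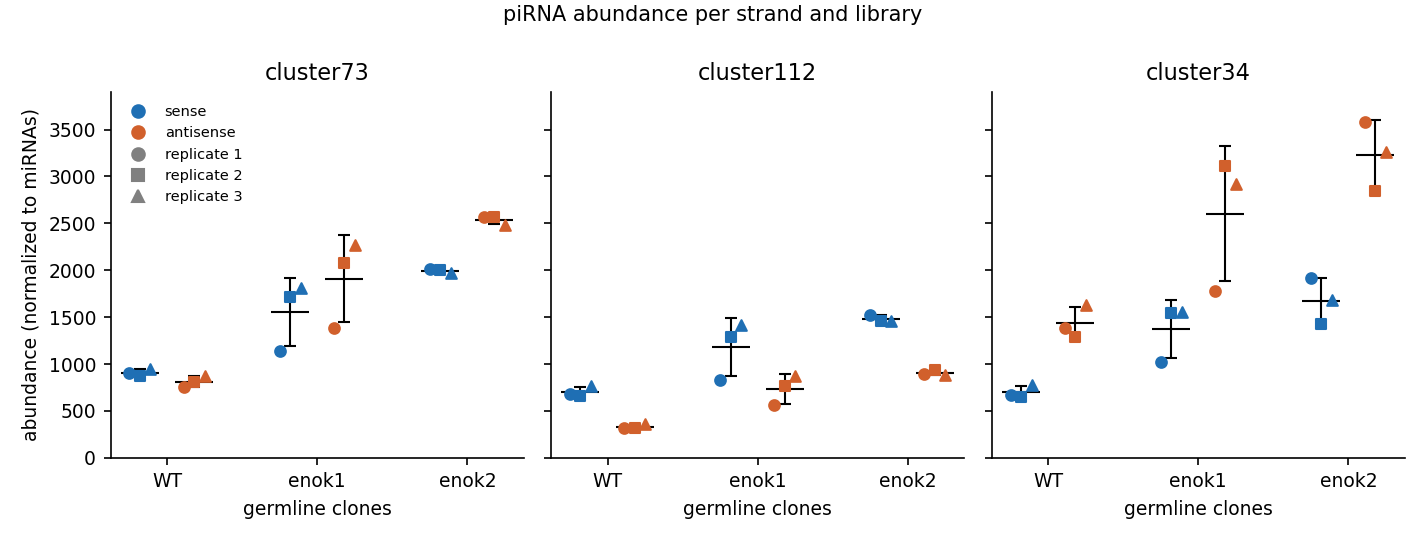
Abundance (normalized to miRNAs) of cluster73, cluster112 and cluster34 on the sense (blue) and antisense (orange) strands in each library, with marker shape giving the replicate and black marks the mean ± SD of 3 libraries. All 6 mutant libraries lie above the 3 WT libraries in each panel and strand, and enok1 replicate 1 is the lowest mutant library on each strand.

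The spread between replicates differed between the alleles. The CV per strand lay between 21.3% and 27.7% for the 3 clusters in enok1. In enok2 it lay between 1.05% and 2.86% for cluster73 and cluster112, while cluster34 had 14.7% for sense and 11.5% for antisense piRNAs. For comparison, the sense CV in enok1 was 20.4% for 42AB, 15.0% for cluster2 and 14.2% for flam. Over all clusters, sense values of enok1 replicate 1 differed from those of replicates 2 and 3 by a median of 0.48 and 0.41 (absolute log2 difference). Between enok1 replicates 2 and 3 this median was 0.13, so the spread was not particular to the 3 clusters. Enok1 replicate 1 was the lowest mutant library for all 3 clusters on both strands. In this library 1 read was worth 0.271 abundance units, against 0.379 and 0.404 in enok1 replicates 2 and 3. In read equivalents, the enok1 libraries held 9300, 10018 and 10102 for cluster73, and 10310, 12288 and 11061 for cluster34. The part of the miRNA level in this spread was not tested.

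These values were then set beside the other clusters. In enok1, 17.9% of the 140 clusters were called higher for sense piRNAs and 13.6% for antisense piRNAs (limma, adjusted p under 0.05). In enok2 these shares were 27.1% and 23.6%. Of all clusters, 9.29% were higher in all 4 of these fits, cluster73, cluster112 and cluster34 among them by the way they were chosen. The 3 were also among the 7.14% of clusters in which the sense and the antisense values of all 6 mutant libraries exceeded those of all 3 WT libraries, which the choice again made likely. Taking all 140 together, the median log2 fold change of sense piRNAs was −0.29 in enok1 and −0.20 in enok2, and that of antisense piRNAs −0.35 and −0.24. The median cluster was thus lower than in WT. Every cluster shared the same WT libraries in both comparisons.

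The mean log2 fold change over both strands and both mutants was 1.18 for cluster73, 1.09 for cluster112 and 1.05 for cluster34. The clusters just outside were cluster31 with 0.96, cluster32 with 0.88 and cluster68 with 0.87. Cluster31 was nearly as high as cluster34 on the sense strand (0.92 and 1.24 in enok1 and enok2) but lower on the antisense strand (0.69 and 1.01).

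**Figure D2:**
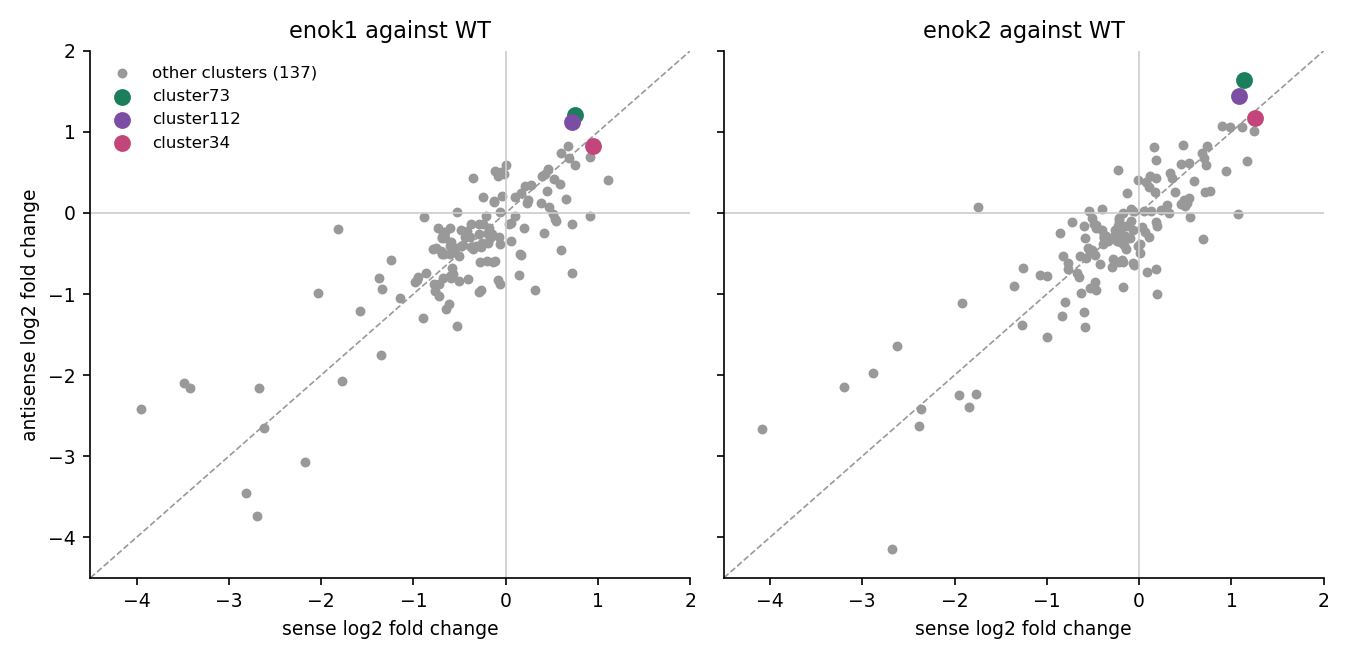
Log2 fold changes on the sense (x axis) and antisense (y axis) strands in enok1 (left) and enok2 (right) compared with WT, with 1 point per cluster and a dashed line where both strands change alike. Cluster73 and cluster112 lie above the dashed line at the upper end of the antisense axis in both mutants (1.20 and 1.13 in enok1, 1.64 and 1.45 in enok2), and cluster34 lies just below it.

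The strand ratio was examined next, because it is taken within a library, where the division by miRNA reads cancels. Cluster73 was nearly balanced in WT, with a ratio of sense to antisense of 1.20, 1.07 and 1.09 in the 3 libraries. It was 0.822, 0.828 and 0.798 in enok1 and 0.784, 0.780 and 0.795 in enok2. The stronger strand of cluster73 was thus sense in every WT library and antisense in every mutant library. On the log2 scale the mean ratio was lower than in WT by 0.45 in enok1 and by 0.51 in enok2.

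Cluster112 was sense-rich in all groups, but less so in the mutants. Its ratio was 2.16, 2.08 and 2.11 in WT, 1.47, 1.69 and 1.62 in enok1 and 1.71, 1.57 and 1.65 in enok2. The groups of cluster73 and cluster112 did not overlap. The ratio of cluster34 was 0.479, 0.508 and 0.479 in WT, 0.573, 0.497 and 0.531 in enok1 and 0.535, 0.501 and 0.515 in enok2. Its groups overlapped, since replicate 2 of enok1 and of enok2 fell within the WT range.

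A change of strand ratio was common among the 140 clusters, of which 28.6% had a lower ratio in all 6 mutant libraries than in all WT libraries and 35.7% had a higher ratio. The separate groups of cluster73 and cluster112 are therefore not unusual. In each of the 3 clusters the strand that was weaker in WT gained on the other in both mutants on average. This held for 67.1% of all clusters in enok1 and 57.1% in enok2. By distance from an equal ratio in WT, cluster73 was in place 14 of 140, counting from the most balanced, and cluster34 and cluster112 were in places 94 and 99. A ratio between 0.5 and 2 was found in 65.7% of clusters in WT. For comparison, 42AB had a ratio of 1.15 ± 0.034 in the WT libraries, against 1.18 ± 0.063 and 1.19 ± 0.027 in enok1 and enok2.

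**Figure D3:**
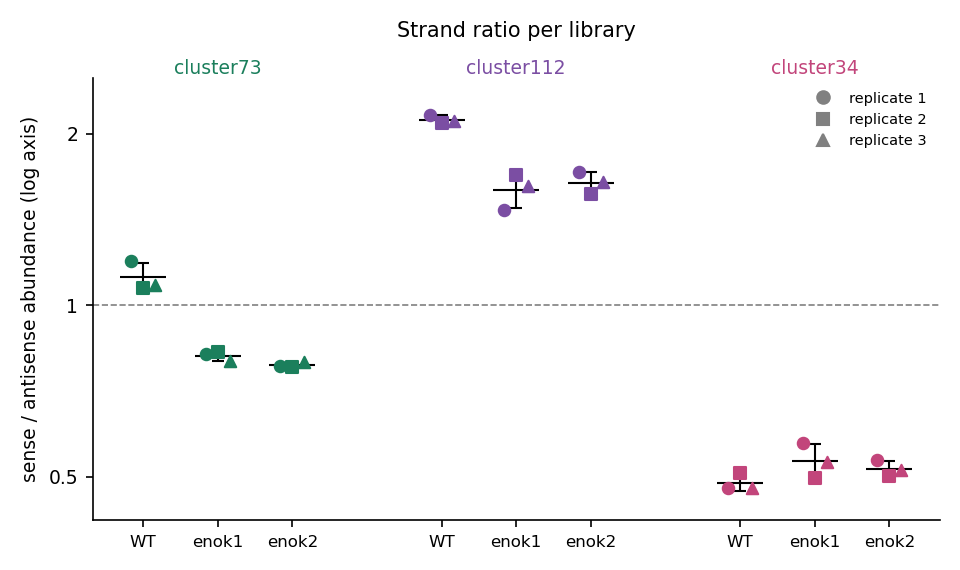
Ratio of sense to antisense abundance (log axis) of the 3 clusters in each library, with marker shape giving the replicate, black marks the mean ± SD of 3 libraries and a dashed line at equal strands. Cluster73 crosses the line, with 1.12 ± 0.067 in WT against 0.816 ± 0.016 (enok1) and 0.786 ± 0.0080 (enok2), cluster112 stays above it and cluster34 below it.

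The share of a cluster in all cluster piRNAs of a library is also free of the normalization to miRNAs, but it is raised by the loss of other clusters. Cluster73 made up 0.303% ± 0.011 of cluster piRNAs in WT, 0.925% ± 0.098 in enok1 and 1.10% ± 0.060 in enok2 (SD, n = 3 each). Its lowest mutant library was at 0.838% and its highest WT library at 0.314%. Cluster112 made up 0.182% ± 0.013, 0.512% ± 0.060 and 0.578% ± 0.029. Cluster34 made up 0.375% ± 0.040, 1.06% ± 0.11 and 1.18% ± 0.088. The shares were thus between 2.81 and 3.05 times the WT mean in enok1 and between 3.15 and 3.63 times in enok2.

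All 3 clusters had larger shares in every mutant library than in every WT library, as did 62.1% of all clusters. The share of 42AB was 5.08% ± 0.17 in enok1 and 5.38% ± 0.25 in enok2. With 42AB taken out of the total, cluster73 had 0.381% ± 0.015 of it in WT, against 0.974% ± 0.10 (enok1) and 1.16% ± 0.061 (enok2), or 2.56 and 3.05 times the WT mean. The gain of cluster112 was then 2.36-fold and 2.67-fold, and that of cluster34 2.36-fold and 2.65-fold. The shares of cluster2 and flam, which are read mainly from the sense strand, were 1.66 and 1.48 times the WT mean in enok1, and 1.56 and 1.32 times in enok2.

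Together the 3 clusters held 0.860% ± 0.065 of cluster piRNAs in WT, 2.49% ± 0.25 in enok1 and 2.86% ± 0.0089 in enok2. Their summed abundance was higher than in WT by 4474 units in enok1 and 6939 in enok2. Mean abundance was higher than in WT at 43 clusters in enok1 and 48 in enok2, and the 3 clusters made up 13.2% and 11.98% of the sum of these gains. Against the sum of losses at the other clusters their gain amounted to 1.95% and 3.27%.

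By summed abundance, the clusters were in the middle and lower ranks in WT and moved up. Cluster34 ranked 54, 57 and 48 of 140 in the WT libraries, 24, 22 and 22 in enok1 and 23, 24 and 23 in enok2. Cluster73 ranked 61, 67 and 61 in WT, 28, 26 and 25 in enok1 and 24, 23 and 24 in enok2. Cluster112 ranked 87, 88 and 87 in WT, 60, 53 and 43 in enok1 and 48, 41 and 43 in enok2. In WT cluster34 was above cluster73 in each library, while in enok2 replicate 2 cluster73 was above.

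Ranked by the group mean, cluster73 gained 37 places in enok1, the most of any cluster, and 39 in enok2. Cluster112 gained 36 and 45 places, the latter being the most of any cluster in enok2. Cluster34 gained 31 in each. The clusters next to them in WT, whose libraries overlapped with theirs there, did not all share this. Cluster141 and cluster130, directly above and below cluster73 at 1740 ± 73.4 and 1713 ± 56.0, were at 1352 ± 217 and 1367 ± 232 in enok1 and at 1445 ± 103 and 1474 ± 91.4 in enok2. Cluster125, directly below cluster112, was at 992 ± 111.9 in the WT libraries, 797 ± 115 in enok1 and 836 ± 17.3 in enok2. Cluster68, directly above cluster112, was at 1137 ± 79.7, 1913 ± 401 and 2214 ± 40.5. Around cluster34, cluster100 was at 2146 ± 158, 2851 ± 363 and 2978 ± 255, and cluster38 at 2118 ± 45.2, 1832 ± 281 and 2238 ± 189.

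**Figure D4:**
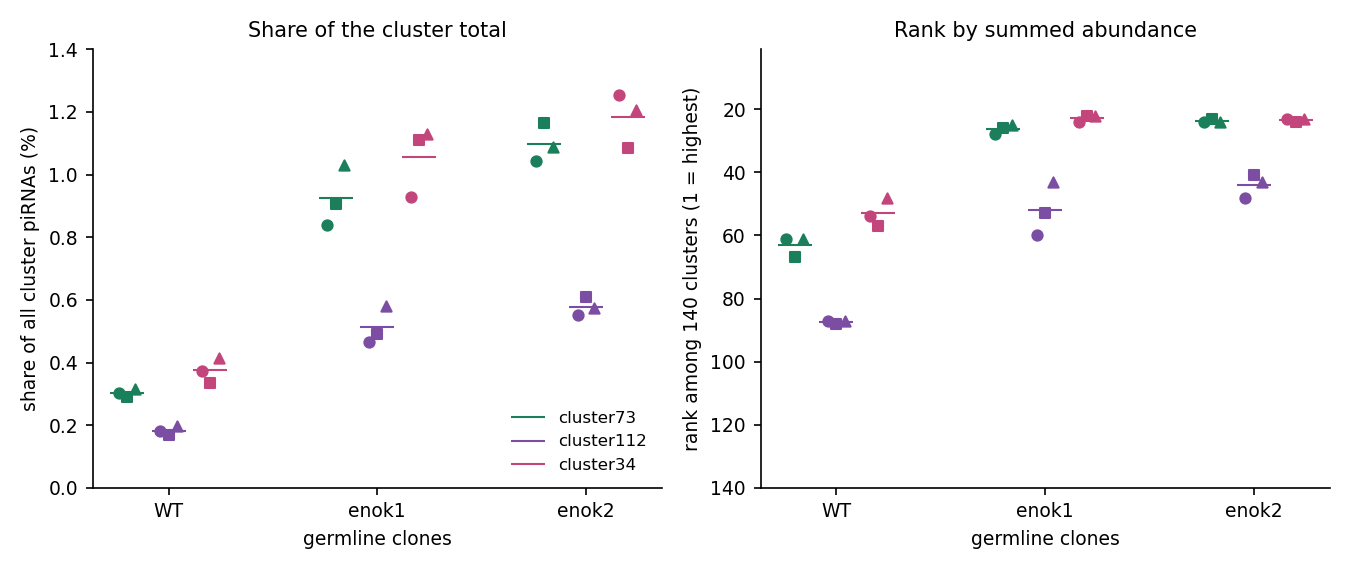
Share of all cluster piRNAs in percent (left) and rank by summed abundance among 140 clusters, with rank 1 at the top (right), of the 3 clusters in each library, with marker shape giving the replicate and horizontal marks the group mean. The shares lie between 0.169% and 0.416% in WT and between 0.466% and 1.26% in the mutants, and the ranks between 48 and 88 in WT and between 22 and 60 in the mutants.

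The clusters whose levels varied most alike across the 9 libraries were found by Pearson's r of log2(abundance + 1), averaged over the strands. For cluster73 these were cluster6 (r = 0.997) and cluster112 (0.996), and for cluster112 they were cluster73 (0.996) and cluster6 (0.994). Cluster34 was most like cluster32 (0.985) and cluster68 (0.984), and its r with cluster73 was 0.971. The median r with all other clusters was −0.32 for cluster73, −0.33 for cluster112 and −0.26 for cluster34. The 9 points share the same libraries and fall into 3 genotypes, so these values mostly describe the difference between WT and mutants. Cluster6, cluster32 and cluster68 also belong to the 13 clusters called higher in all 4 fits, and their mean log2 fold changes were 0.84, 0.88 and 0.87. How many reads the 3 clusters share with each other or with cluster6 was not tested.

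Whether the alleles differ was tested in the comparison of enok2 with enok1, which the choice of clusters had not used. None of the 3 clusters passed on either strand. Antisense cluster73 was higher in enok2 by 0.44 on the log2 scale (SE 0.19, 95% interval 0.08 to 0.81, limma adjusted p = 0.371), and sense cluster73 by 0.39 (0.03 to 0.75, limma adjusted p = 0.446). All 3 enok2 libraries lay above all 3 enok1 libraries on both strands of cluster73 and of cluster112. The 2-sided exact permutation p was 0.1 for each of these, the smallest that 3 libraries against 3 can give. Most clusters were higher in enok2 than in enok1, 115 of 140 for sense and 111 for antisense piRNAs. How many of them had every enok2 library above every enok1 library was not counted. The separation is therefore not shown to be particular to cluster73 and cluster112.

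For cluster112 the difference was 0.36 on the sense strand (95% interval 0.002 to 0.72, limma adjusted p = 0.504) and 0.32 on the antisense strand (−0.05 to 0.68, limma adjusted p = 0.562). For cluster34 it was 0.30 on the sense strand (−0.06 to 0.66, limma adjusted p = 0.591) and 0.35 on the antisense strand (−0.02 to 0.71, limma adjusted p = 0.562), and 2 of 3 enok2 libraries lay above all enok1 libraries. The intervals for abundance reach up to 0.81 on the log2 scale, so they do not show that the alleles act alike. Those of 3 of the 6 fits include 0, while those of both strands of cluster73 and of sense cluster112 do not. These intervals are not adjusted for the number of clusters. For sense piRNAs 1.43% of all clusters, and for antisense piRNAs 2.14%, were called in this comparison in either direction. The median cluster was higher in enok2 by 0.14 for sense and 0.11 for antisense piRNAs. Without enok1 replicate 1, the difference fell to 0.18 for sense and 0.23 for antisense cluster73, to 0.13 and 0.14 for cluster112 and to 0.10 and 0.09 for cluster34.

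The strand ratio did not pass the test between the alleles for any of the 3 clusters either. On the log2 scale it differed between enok2 and enok1 by −0.05 for cluster73 (95% interval −0.17 to 0.06, limma adjusted p = 0.508), by 0.04 for cluster112 (−0.13 to 0.21, limma adjusted p = 0.701) and by −0.04 for cluster34 (−0.20 to 0.12, limma adjusted p = 0.692). Of all clusters, 1.43% were called for this ratio. The 2-sided exact permutation p of the ratio was 0.1 for cluster73, 0.6 for cluster112 and 0.7 for cluster34. For cluster73 all 3 enok2 libraries lay below all enok1 libraries. How many of all clusters separated in this way was not counted for the ratio either. The share of cluster73 was higher in enok2 by 0.174 percentage points (2-sided exact permutation p = 0.1), that of cluster112 by 0.066 (0.3) and that of cluster34 by 0.126 (0.3).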

How the data were processed

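Small RNAs in total RNA of egg chambers past the earliest stages were sequenced, and per the study's methods the authors mapped them to dm3 with piPipes, allowing no mismatches, with unique mappers only; Trimmomatic is named in the submitters' processing notes. The deposited values are a linear signal that the authors divided by each library's miRNA reads, with 1 table per strand and replicates not pooled. Low values of the 3′ UTR table gather at multiples of a step, the value of 1 read. Only 25.9% to 28.1% of them were whole steps (within 0.005, against 2.06% to 3.69% by chance), so most values look like reads shared out between positions. The study reports no uniquely mapped piRNAs at cluster110 in WT, but the deposited WT mean of cluster110 over both strands was 217. The deposited cluster values are therefore not those of unique mappers alone. Groups were read from the sample labels. Cluster73, cluster112 and cluster34 and the other clusters named were chosen with earlier results of these data known. The latter are 42AB, cluster2 and flam, the next 3 clusters by mean log2 fold change, the 2 most alike and the WT neighbours in rank. Cluster71 was named after their values were seen.

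Each pair of groups was fitted with limma 3.58.1 in R 4.3.3 on log2(abundance + 1) over all 140 clusters of a strand, with Benjamini-Hochberg adjustment over those clusters. The pseudocount understates changes at low abundance. In 5 of 6 fits limma gave all clusters the same SE. The code was tested on simulated data. Alternatives were other pseudocounts, scalings, filters and variance models, single libraries left out and the replicate number as a block. No position or sequence of clusters was used here.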

Additional observations from a re-analysis of the deposited data

How the results depend on the processing

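All 3 clusters were higher in both mutants than in WT on both strands under each alternative tried, which their selection made likely. Across these alternatives, cluster73 kept the largest mean log2 fold change of the 140 clusters (1.12 to 1.72), and cluster112 (1.02 to 1.63) and cluster34 (0.99 to 1.59) took places 2 or 3. The sizes depended on the scaling, which also moves the median cluster. Scaling libraries by their median of ratios brings that median to between −0.01 and 0.03, and scaling to the cluster sum to between 0.22 and 0.34, against −0.35 to −0.20 as deposited.

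Scaled to the cluster sum, the enok1 log2 fold changes on the sense and antisense strands were 1.37 and 1.83 for cluster73, 1.34 and 1.75 for cluster112 and 1.57 and 1.45 for cluster34, and those of enok2 were 1.60 and 2.10, 1.54 and 1.90, and 1.71 and 1.63. Scaled by the median of ratios, enok2 was at 1.33 and 1.88 for cluster73, 1.27 and 1.68 for cluster112 and 1.44 and 1.41 for cluster34. With this scaling enok1 was at 1.07 and 1.56 for cluster73, 1.04 and 1.48 for cluster112 and 1.27 and 1.18 for cluster34. Scaled to sense flam, sense cluster73 was at 1.21 in enok2. With 1 library left out, the log2 fold changes of cluster73 ranged from 0.62 to 0.96 (sense) and 1.06 to 1.42 (antisense) in enok1.

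The numbers of clusters called higher depended on the scaling and the variance model. With the median of ratios they were 51 sense and 45 antisense in enok1 (25 and 19 as deposited), 55 antisense in enok2 (33) and 30 in all 4 fits (13). With the cluster sum they were 83 and 84 in enok1, 86 and 82 in enok2 (38 and 33) and 63 in all 4. With each cluster's own variance they were 9 and 4 in enok1 and 0 in all 4, where 9 clusters had an unadjusted p under 0.05 in all 4. With 1 library left out, the enok1 counts ranged from 15 (without WT replicate 1) to 35 on the sense and from 8 (without WT replicate 1) to 29 (without enok1 replicate 1) on the antisense strand, where they were 12 and 11 without WT replicates 2 and 3 and 10 without enok1 replicate 2. The count in all 4 fits ranged from 7 (without WT replicate 1 or enok1 replicate 3) to 20 (without enok1 replicate 1) and was 8 without WT replicate 2 or 3 or enok1 replicate 2. Enok2 counts ranged from 32 to 39 and from 29 to 32.

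Between the alleles none of the 3 clusters was called under any alternative run, with adjusted p-values from 0.0737 to 0.988 for abundance and from 0.218 to 0.935 for the strand ratio. Without enok1 replicate 1 the difference in ratio turned to −0.013 for cluster112 and to 0.0090 for cluster34, and over the libraries left out it reached 0.088 and −0.093. With 1 library left out, the difference of sense cluster73 ranged from 0.18 to 0.51 and of antisense cluster73 from 0.23 to 0.58. The number of clusters called on the sense strand (2) was 6 with the median of ratios, 8 with the cluster sum, 0 with sense flam (24 at an unadjusted p under 0.05), 4 with all 3 groups in 1 fit, 0 with own variance (7 unadjusted) and 1 to 4 with 1 library left out. On the antisense strand (3) it was 5 with all 3 groups in 1 fit, 0 with own variance (4 unadjusted) and 0 to 4 with 1 library left out, being 0 without enok1 replicate 1 or enok2 replicate 1 (17 and 3 unadjusted). For the ratio (2) it was 1 with a pseudocount of 10, 1 with own variance and 0 to 11 with 1 library left out, being 0 without enok2 replicate 2 or 3 (25 and 24 unadjusted).

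Libraries share replicate numbers across groups, but same-numbered libraries did not deviate together (r between −0.32 and 0.29 over clusters, above 0.1 in 7 of 18 pairs, and best with the own number in 11 of 36 cases). With the replicate number as a block, the sense and antisense calls in enok1 numbered 26 and 22, those in enok2 33 and 32, and 14 clusters were called in all 4 fits. Between the alleles 2 sense and 2 antisense clusters were called, and 0 for the ratio (24 at an unadjusted p under 0.05). Adjusted p-values of the 3 clusters between the alleles were from 0.657 to 0.877 with this block. Group values of share, ratio and rank moved by more than 1 SD in 35 cases, all of them with 1 strand alone or with the total without 42AB, and by less in 100. Taken from read equivalents, the counting error of these clusters (CV 1.10% to 3.56%) was small beside the spread of enok1. It was not small beside that of cluster73 and cluster112 in enok2, whose CVs lay between 1.05% and 2.86%. Having 3 libraries per group limits what the allele comparison can resolve.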
